A study of Homo sapiens with 8 samples.

Results

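The replication-dependent histone genes are the clustered genes that supply histone protein while DNA is being copied. Here they were taken as protein-coding genes with the symbols *H1-1* to *H1-5*, or with *H2AC*, *H2BC*, *H3C* or *H4C* followed by a number. The rule found 60 of the 58051 genes counted, with 5 linker (H1), 15 H2A, 16 H2B, 11 H3 and 13 H4 genes. Another 8 symbols of the same form, *H2AC18*, *H2AC19*, *H2BC7*, *H2BC8*, *H3C2*, *H3C3*, *H4C2* and *H4C6*, were not matched to a counted gene and were not analysed here. The 8 RNA-seq libraries came from A375, a human melanoma cell line, as 4 wild-type lines named WT1 to WT4. Each line was grown in DMEM for 12 h either with 10% FBS (serum) or with no FBS (serum-free), 1 library per line and condition. How the lines differ from one another is not given in the sources used here. The serum-free and serum groups therefore hold the same 4 lines, and the line number pairs them. P-values of the fit without blocking measure the spread between these 4 lines within each condition. With line as a replicate block they measure the spread of the changes within lines.

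Replication-dependent histone genes are transcribed in S phase, when NPAT gathers on their promoters, and most have no introns. Their mRNA normally ends after a short conserved stem-loop instead of a poly(A) tail. The stem-loop is bound by SLBP, which is needed for cutting, export and translation of the mRNA, and histone mRNA is degraded quickly when DNA synthesis stops. H2A, H2B, H3 and H4 form the core of the nucleosome, and H1 binds the DNA between nucleosomes. Several members can also make polyadenylated mRNA. The libraries were made from total RNA depleted of ribosomal RNA, a preparation that does not select for a poly(A) tail.

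The stem-loop was found in annotated transcripts of 51 of the 60 members, and the forms below show how the classes differ in it, with capitals marking the 16 bases of stem and loop. The sequences are written as DNA, 5′ to 3′.
*H1-4*: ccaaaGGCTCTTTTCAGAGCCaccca
*H2BC3*: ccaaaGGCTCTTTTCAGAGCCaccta
*H2BC4*: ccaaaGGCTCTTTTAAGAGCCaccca
*H4C3*: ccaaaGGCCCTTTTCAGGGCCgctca
*H4C9*: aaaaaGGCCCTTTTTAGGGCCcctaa
The form in *H1-4* and *H2BC3* was the commonest, in 31 members of the H1, H2A, H2B and H3 classes. The form in *H2BC4*, with another loop, was in 6 members. H4 genes carried their own stem, in the form of *H4C3* in 8 members and of *H4C9* in 3. No stem-loop was found in the annotated transcripts of *H1-2*, *H2AC12*, *H2AC21*, *H2BC10*, *H3C6*, *H3C7*, *H3C13*, *H4C12* and *H4C13*. The search asked for a stem of 6 paired bases starting with GG and a loop of 4 starting with TT. It would miss another form or a transcript annotated too short, so these genes may still carry the element.

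Promoters of 55 members were compared with the 35116 promoter windows of the RefSeq table for GRCh38.p14, each from 250 bases before to 50 bases after the start. The CCAAT box (CCAAT, either strand) was in 83.6% of members and 34.6% of all windows. It was in every window of the H1, H2A, H2B and H3 classes but in 2 of 11 H4 windows. The TATA box (TATAAA) was in 67.3% of members and 11.5% of all windows. The octamer ATTTGCAT, the site known for OCT1 in H2B promoters, was in 11 of 14 H2A and 12 of 16 H2B windows, in 1 of 9 H3 windows and in no H1 or H4 window, beside 1.77% of all windows. The H3 window with an octamer is that of *H3C4*, for which the table gives the same stretch as for *H2AC7*. An E2F motif (TTTCGCGC or TTTGGCGC) was in 21.8% of members and 1.15% of all windows. Windows of H2A and H2B genes with nearby starts on opposite strands overlap, so the same site can count for both genes. These motifs overlap only in part, and a match is a description of the letters, not a bound site.

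The 150 bases before the start are shown for the members with the largest fall in the H2B and H4 classes, for *H4C16*, the tested member with the smallest change, and for *H3C6*, the 1 member that rose. Capitals mark the CCAAT box, TATA box, octamer and E2F motifs within these stretches, on either strand.
*H2BC3* (chr6:26043714-26043863, minus strand): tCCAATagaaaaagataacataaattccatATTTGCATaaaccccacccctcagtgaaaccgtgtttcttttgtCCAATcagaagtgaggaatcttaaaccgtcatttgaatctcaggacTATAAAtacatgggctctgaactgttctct
*H4C9* (chr6:27139132-27139281, plus strand): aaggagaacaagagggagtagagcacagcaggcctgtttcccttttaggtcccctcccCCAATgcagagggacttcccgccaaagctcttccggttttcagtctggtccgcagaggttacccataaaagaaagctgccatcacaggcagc
*H4C16* (chr12:14771132-14771281, minus strand): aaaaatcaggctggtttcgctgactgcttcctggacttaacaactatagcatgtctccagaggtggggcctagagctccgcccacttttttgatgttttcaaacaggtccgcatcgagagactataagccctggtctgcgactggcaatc
*H3C6* (chr6:26224028-26224177, plus strand): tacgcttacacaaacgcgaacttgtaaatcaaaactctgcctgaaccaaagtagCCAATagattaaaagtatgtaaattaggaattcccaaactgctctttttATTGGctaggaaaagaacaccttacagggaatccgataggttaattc
*H2BC3* holds CCAAT boxes, an octamer and a TATA box, *H4C9* a single CCAAT box, *H4C16* no match in these bases, and *H3C6* CCAAT boxes only.

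Library totals ran from 29759279 to 73341551 counts on genes, and members took 0.81% to 1.11% of them with serum and 0.60% to 0.64% without. The WT4 serum library stood apart, with the 1.11%, and 43 of the 50 tested members were higher in it than in any other serum library. Pairs that did not align uniquely made up 22.7% and 16.8% of the WT1 and WT2 serum libraries and 5.73% to 10.1% of the others. The deposited data of the WT4 libraries carry another name, so their identity rests on the label. Of the melanoma markers, *AXL*, *CSPG4*, *VIM*, *NGFR*, *MITF* and *S100B* were expressed, whereas *SOX10* was at 0 counts in all 8 libraries, *TYR* at 0 to 4 counts and *PMEL* and *MLANA* at about 1 CPM (counts per 1000000 counts on genes, scaled) or less on average. Of markers of other cell types, *ALB* was at 0 and *PTPRC*, *CD3E* and *COL3A1* had at most 6 counts per library. Others were detected, with means with and without serum of 17.2 and 15.4 CPM for *KRT14*, 4.56 and 3.62 for *LUM*, 1.04 and 1.94 for *DCN*, 0.34 and 0.60 for *VWF* and 0.33 and 0.56 for *KRT5*. Of 10 tested melanoma markers, 1 was called lower and 1 higher without serum (14.0% and 11.1% of all tested genes), or 4 and 3 with line as a replicate block (22.4% and 23.2% of all tested genes). Of 5 tested markers of other cell types none was called, or 1 higher with the block.

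Histone genes of every class were lower without serum. Levels are given as CPM on TMM-scaled library sizes, and calls rest on the quasi-likelihood test of edgeR, with p adjusted by the Benjamini-Hochberg method over 17671 tested genes and a threshold of 0.05. Of the 50 members with enough counts to be tested, 42 fell, 1 rose and 7 did not pass. Over all tested genes, 14.0% were called lower (2477) and 11.1% higher (1957), a split that became 1843 lower and 2508 higher with upper-quartile scaling. In the fit with line as a replicate block, 44 members fell and 1 rose, beside 22.4% lower and 23.2% higher over all genes. The median log2 fold change of the tested members was -0.68, against 0.03 for all tested genes. All 4 serum-free libraries were under all 4 serum libraries for 47 of the 50 members, beside 15.0% of all tested genes. The change was downward in all 4 lines for 49 of 50 members, beside 26.6% of all genes. In bulk RNA, fewer cells that express histone genes and less histone RNA per cell cannot be told apart.

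**Figure D1:**
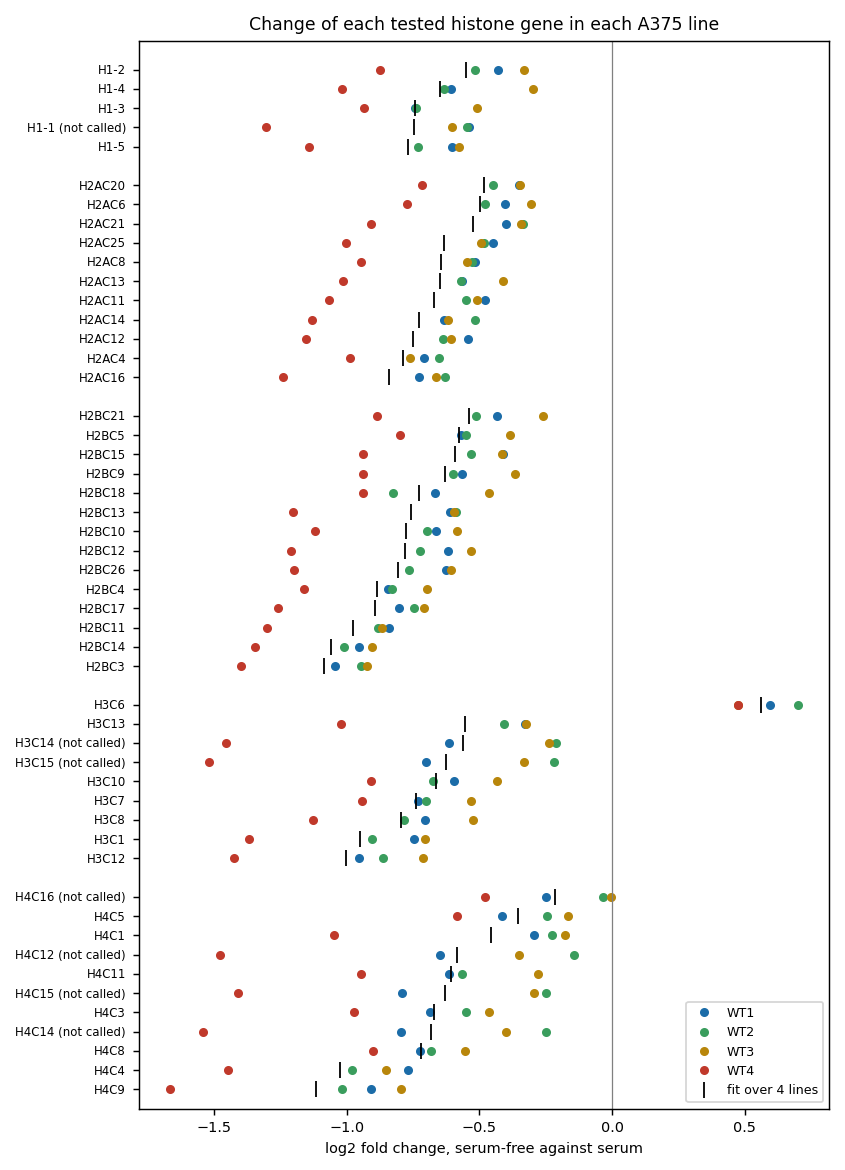
Log2 fold change (serum-free against serum, horizontal axis) of each tested member, grouped by class, with 1 point per A375 line and a bar for the fit over all 4 lines. WT4 has the largest fall for 49 of the 50 members, and *H3C6* alone lies above 0 in all lines.

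The fall was largest in WT4. On the log2 scale the median change of the tested members was -1.06 in WT4, against -0.62, -0.58 and -0.50 in the lines WT1 to WT3. By class, the median was -0.74 for H1, -0.65 for H2A, -0.78 for H2B, -0.66 for H3 and -0.63 for H4. The SD of the line medians within a class was 0.22 to 0.36. The same lines are in every class, and differences between classes were not tested. Without both WT4 libraries, 47 members fell and the median over members was -0.57.

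Counts summed over all members of a class show the same without dividing reads between near-identical copies. Pairs left out because they did not align uniquely are not recovered by summing. The sums also leave out the symbols not matched to a counted gene, such as *H3C2* and *H3C3*. Summed H2B RNA, the highest of the 5 sums, was at 2779, 2957, 2662 and 3538 CPM with serum in WT1 to WT4 and at 1751, 1794, 1830 and 1677 CPM without. Summed H2A RNA was at 1722, 1808, 1684 and 2409 CPM with serum and at 1225, 1259, 1212 and 1238 without. The serum-free sums were close to one another, and the serum sums were spread by the high WT4 library. For H1 the sums were 1833, 1804, 1620 and 2269 CPM with serum and 1225, 1166, 1233 and 1153 without. For H4 they were 1614, 1533, 1444 and 1826 CPM with serum and 1033, 1090, 1095 and 917 without. H3 had the lowest sums, at 1233, 1225, 1105 and 1555 CPM with serum and 795, 824, 807 and 710 without. In all 5 classes the groups did not overlap. Within lines, the log2 difference of the H2B sum was -0.67, -0.72, -0.54 and -1.08 in WT1 to WT4 and that of the H2A sum -0.49, -0.52, -0.47 and -0.96, so H2B was lower than H2A in each line. It was also lower than the H1 and H4 sums in each line, and than the H3 sum in WT1 to WT3 but not in WT4. The mean log2 difference over lines was -0.65 ± 0.24 for H1, -0.61 ± 0.23 for H2A, -0.75 ± 0.23 for H2B, -0.70 ± 0.30 for H3 and -0.63 ± 0.26 for H4 (SD, n = 4). The share of H2B in the counts of all members was 30.3%, 31.7%, 31.3% and 30.5% with serum and 29.0%, 29.3%, 29.6% and 29.4% without, so the lowest serum library was above the highest serum-free library. The other 4 classes overlapped between the groups in their share.

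**Figure D2:**
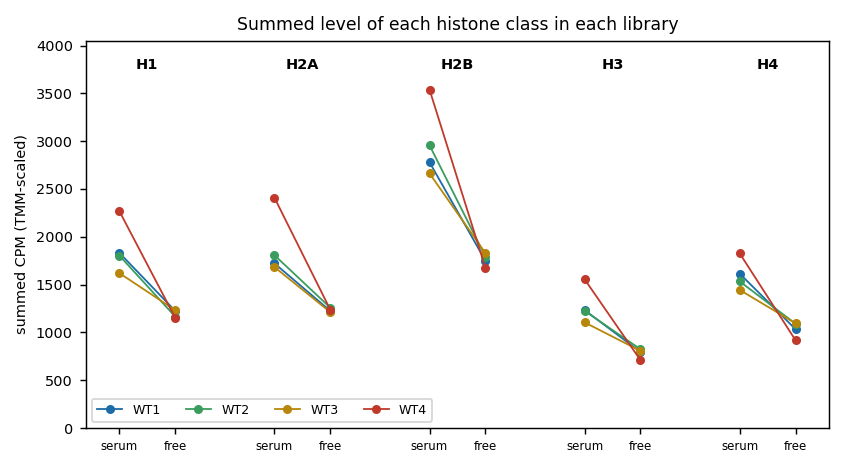
Summed CPM of each histone class (vertical axis) in the serum and serum-free library of each A375 line, with 1 line drawn per A375 line. Every class is lower without serum in every line, and the WT4 serum library is the highest in each class.

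All linker genes were lower without serum, and 4 of 5 passed the test. *H1-4* (chr6:26156329-26157115 in GRCh38.p14) was the most abundant per length, at 815 ± 120 RPKM with serum and 519 ± 30.4 without (SD, n = 4), where RPKM is CPM per kilobase of merged exons. *H1-2*, at 765 ± 125 and 522 ± 8.37 RPKM, did not differ from it beyond the spread. *H1-4* was at 624, 636, 538 and 767 CPM with serum and 409, 410, 437 and 379 CPM without. Its log2 fold change was -0.65 ± 0.10 (SE, edgeR adjusted p = 0.00264). *H1-5* fell most among those called, from 247, 239, 219 and 293 CPM to 162, 144, 146 and 132 CPM, a log2 fold change of -0.77 ± 0.10 (SE, edgeR adjusted p = 0.00144). *H1-3* fell by 0.74 and *H1-2*, which can make polyadenylated mRNA, by 0.55 on the log2 scale.

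*H1-1*, the least abundant linker gene, differed more between lines than between conditions. It was at 47.5, 21.2, 36.4 and 44.2 CPM with serum and at 32.7, 14.5, 23.9 and 17.9 CPM without. The groups overlapped, although each line was lower without serum. The log2 fold change of -0.75 ± 0.32 (SE) did not pass without the block (edgeR adjusted p = 0.122) and passed with it (edgeR adjusted p = 1.59e-04).

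All 11 tested H2A genes fell, with log2 fold changes from -0.48 to -0.84. Without both libraries of WT1 or of WT3 8 were called, and 9 without those of WT2. *H2AC21* lost its call in 10 of 20 alternatives, *H2AC20* in 3 and *H2AC25* in 2. *H2AC11* (chr6:27133043-27133535) was the most abundant per length, at 686 ± 135 RPKM with serum and 431 ± 13.8 without (SD, n = 4). *H2AC8* followed at 517 ± 77.8 and 330 ± 7.58 RPKM. *H2AC11* was at 293, 326, 298 and 436 CPM with serum and 210, 223, 209 and 208 CPM without. *H2AC16* had the largest fall of the class, from 41.5, 40.2, 37.8 and 60.8 CPM to 25.1, 26.0, 23.9 and 25.7 CPM, a log2 fold change of -0.84 ± 0.14 (SE, edgeR adjusted p = 0.00338). *H2AC4* fell by 0.79 and *H2AC12* by 0.75 on the log2 scale. *H2AC6*, another gene known for a polyadenylated form, fell from 182, 207, 183 and 241 CPM to 137, 148, 148 and 141 CPM.

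All 14 tested H2B genes fell, from -0.54 to -1.08 on the log2 scale. *H2BC3* (chr6:26043227-26043713) fell most, from 134, 119, 116 and 149 CPM with serum to 64.9, 61.9, 61.1 and 56.4 CPM without. Its log2 fold change was -1.08 ± 0.09 (SE, edgeR adjusted p = 7.19e-04), with every serum-free library far under every serum library. *H2BC14* (chr6:27815022-27815489) fell from 161, 141, 147 and 184 CPM to 82.9, 70.1, 78.6 and 72.3 CPM, a log2 fold change of -1.06 ± 0.10 (SE, edgeR adjusted p = 8.28e-04). *H2BC11* fell from 160, 163, 153 and 190 CPM to 89.1, 88.3, 84.1 and 77.3 CPM. In these genes the 3 lines other than WT4 also fell by at least 0.84 on the log2 scale.

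The most abundant H2B gene depended on the length used. Per merged exon length it was *H2BC12*, at 550 ± 87.7 RPKM with serum and 320 ± 21.3 without (SD, n = 4). Per coding length it was *H2BC18*, at 1259 ± 142 and 760 ± 58.9 RPKM, beside *H2BC21* at 1165 ± 213 and 802 ± 32.1, and these genes did not differ beyond the spread. *H2BC18* was at 454, 558, 467 and 561 CPM with serum and 285, 314, 338 and 293 CPM without, and fell by 0.73 on the log2 scale.

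The 6 members known to have polyadenylated forms all fell, with a median log2 fold change of -0.57. *H2BC4* fell from 276, 303, 254 and 325 CPM to 154, 170, 157 and 145 CPM, a log2 fold change of -0.89 ± 0.09 (SE, edgeR adjusted p = 8.28e-04). Its coding sequence is wholly overlapped by another gene in the lifted annotation, so its counts are uncertain. *H2BC12* fell by 0.78, *H2BC5* by 0.58 and *H2BC21* by 0.54 on the log2 scale. The counts do not separate polyadenylated from stem-loop transcripts.

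H2A and H2B genes often lie head to head and share a short region between their starts, so both of a pair can be read from the same stretch. Among members with a promoter window there were 9 such pairs with starts 194 to 248 bases apart, and both genes were tested in 6. In all 6 the H2B gene had the lower log2 fold change, by 0.06 to 0.39 with a median of 0.24, and it was so in 23 of 24 combinations of pair and line. *H2AC14* fell by 0.73 and *H2BC14*, whose start is 245 bases away, by 1.06 on the log2 scale. *H2AC6* fell by 0.50 and *H2BC4*, whose counts are uncertain, by 0.89, and *H2AC11* fell by 0.67 and *H2BC11* by 0.98. *H2AC20* and *H2BC21*, at -0.48 and -0.54, differed by less than the SE of either. *H2AC13* and *H2BC13* were at -0.65 and -0.76, and *H2AC25* and *H2BC26* at -0.63 and -0.81. *H2AC12* had no promoter window and could not enter this count, although it starts at 27147106 on chromosome 6, near the end of *H2BC12* at 27146858. *H2AC12* fell by 0.75 and *H2BC12* by 0.78 on the log2 scale. The H2B gene fell more in WT1, WT2 and WT4 but less in WT3, at -0.53 against -0.61. Differences within pairs were not tested.

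**Figure D3:**
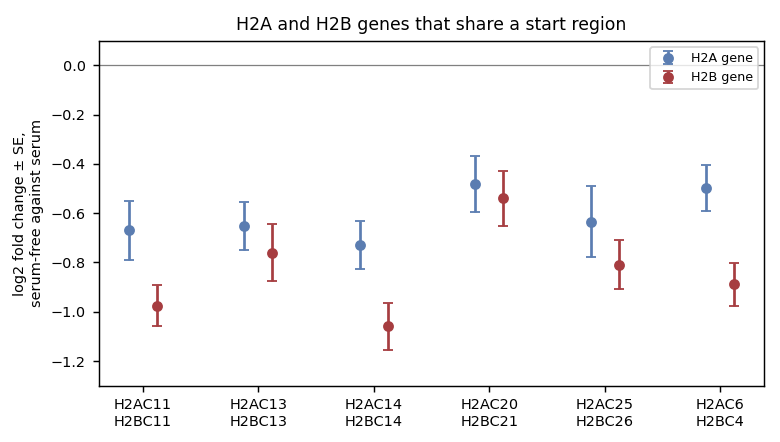
Log2 fold change with its SE (serum-free against serum, vertical axis) of the H2A and the H2B gene of head-to-head pairs. Shown are pairs found among members with a promoter window and with both genes tested. The H2B gene lies lower in all 6 pairs, and the counts of *H2BC4* are uncertain because another gene overlaps its coding sequence.

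Among 9 tested H3 genes, 6 fell, 1 rose and 2 did not pass. *H3C13* (chr1:149813225-149813693) was the most abundant per length, at 545 ± 149 RPKM with serum and 370 ± 7.95 without (SD, n = 4). It was at 213, 229, 220 and 360 CPM with serum and 169, 172, 176 and 177 CPM without, so the serum group is spread by WT4. Its log2 fold change of -0.56 ± 0.16 (SE, edgeR adjusted p = 0.0301) lost its call in 9 of 20 alternatives. The call was lost with upper-quartile scaling (edgeR adjusted p = 0.0509), with no filter on low counts and without any 1 serum-free library. It was also lost when any of the lines WT1 to WT3 was left out (edgeR adjusted p = 0.0791, 0.0852 and 0.0865). *H3C12* (chr6:27890315-27890826) had the largest fall of the class, from 191, 188, 167 and 248 CPM to 98.6, 103, 102 and 92.2 CPM. Its log2 fold change was -1.004 ± 0.113 (SE, edgeR adjusted p = 9.96e-04). *H3C1* fell by 0.95 and *H3C8* by 0.79 on the log2 scale.

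*H3C6* (chr6:26224178-26227473) was the 1 member that rose, and it was also the least abundant tested member. It was at 5.30, 4.84, 6.40 and 5.88 CPM with serum and at 8.04, 7.89, 8.91 and 8.19 CPM without, with no overlap between the groups. The log2 fold change was 0.56 ± 0.13 (SE, edgeR adjusted p = 0.0122). The call was lost without both libraries of WT1 (adjusted p = 0.0806 in edgeR) or of WT2 (adjusted p = 0.0711 in edgeR). Per length it was at 2.09 ± 0.25 RPKM with serum and 3.08 ± 0.17 without (SD, n = 4), over merged exons of 2679 bases of which 411 are coding.

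Among 11 tested H4 genes, 7 fell and 4 did not pass. *H4C3* (chr6:26103933-26104337) was the most abundant per length, at 815 ± 73.7 RPKM with serum and 512 ± 33.8 without (SD, n = 4). It was at 331, 319, 299 and 370 CPM with serum and 206, 218, 217 and 188 CPM without, and fell by 0.67 on the log2 scale. *H4C9* (chr6:27139282-27139678) had the largest fall of all members, from 69.5, 74.5, 75.9 and 109 CPM to 36.9, 36.8, 43.6 and 34.4 CPM. Its log2 fold change was -1.12 ± 0.14 (SE, edgeR adjusted p = 0.00161). *H4C4* fell by 1.02 and *H4C8* by 0.72 on the log2 scale, and another gene overlaps 47.9% of the coding sequence of *H4C8* in the lifted annotation, so its counts are uncertain. *H4C5* had the smallest fall that passed, -0.36 ± 0.08 (SE, edgeR adjusted p = 0.00974), and it was lost without both WT1 libraries (0.0731). *H4C1* lost its call in 11 of 20 alternatives.

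*H4C16* (chr12:14770720-14771131), the only member outside chromosomes 1 and 6, changed least. It was at 36.5, 29.2, 29.7 and 48.2 CPM with serum and at 30.7, 28.5, 29.6 and 34.5 CPM without, and the groups overlapped. The log2 fold change of -0.22 ± 0.15 (SE) did not pass (edgeR adjusted p = 0.336, and 0.0640 with the block).

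The other members that did not pass, *H3C14*, *H3C15*, *H4C12*, *H4C14* and *H4C15*, share their annotated coding sequence with another member. The pairs with the same coding sequence are *H3C14* with *H3C15*, *H4C14* with *H4C15*, and *H4C11* with *H4C12*, and reads from such copies could be split between them or dropped, so their values are uncertain. *H3C14* was at 121, 103, 89.8 and 102 CPM with serum and at 79.3, 88.8, 76.1 and 37.03 CPM without. *H4C14* was at 138, 108, 96.5 and 107 CPM with serum and at 79.7, 91.0, 73.1 and 36.5 CPM without. In both, the WT4 serum-free library was the lowest of all, and WT2 changed little. *H3C15* and *H4C15* showed the same order, and *H4C12* was at 22.2, 19.3, 19.9 and 20.5 CPM with serum and at 14.2, 17.5, 15.6 and 7.34 CPM without.

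Their log2 fold changes were -0.56 ± 0.25 for *H3C14*, -0.62 ± 0.25 for *H3C15*, -0.68 ± 0.26 for *H4C14*, -0.63 ± 0.25 for *H4C15* and -0.59 ± 0.23 for *H4C12* (SE). The edgeR adjusted p ran from 0.0893 for *H4C12* to 0.132 for *H3C14*. With the block, *H4C12* passed (edgeR adjusted p = 0.0445) and the other 4 did not. Without both WT4 libraries all 5 passed, with smaller changes of -0.36 for *H3C14* and -0.49 for *H4C14*. *H4C11*, the copy of *H4C12*, fell from 215, 218, 212 and 287 CPM to 140, 148, 175 and 149 CPM. The share of pairs not aligned uniquely was 22.7%, 16.8%, 7.09% and 10.1% with serum and 6.76%, 7.23%, 7.73% and 5.73% without in WT1 to WT4. It was highest in the WT1 serum library and lowest in the WT4 serum-free library, where each of these 5 genes was also highest and lowest. The order of the other libraries was not the same throughout, since in WT3 the share was higher without serum while all 5 genes were lower. Its part in these values was not tested.

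**Figure D4:**
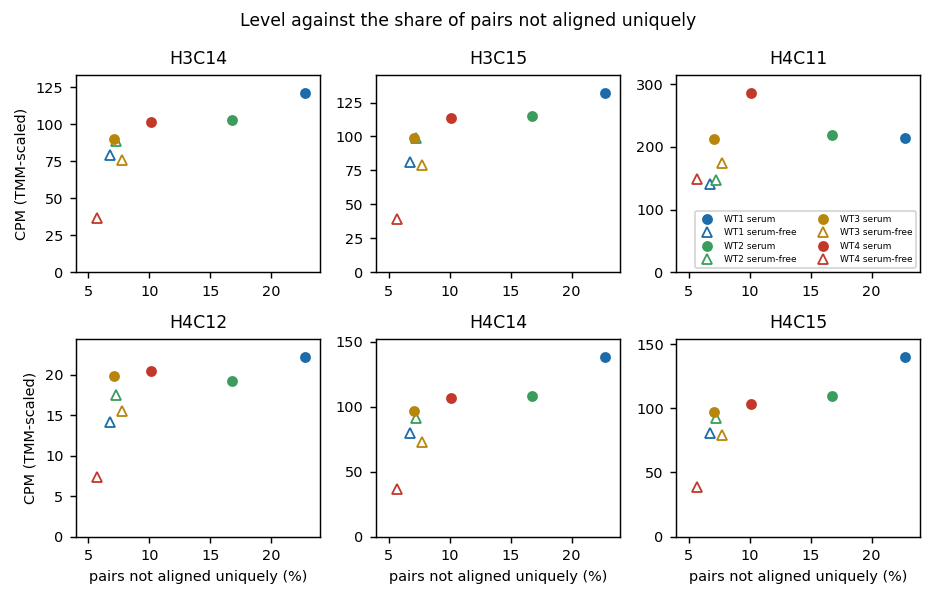
CPM (vertical axes) of the 6 tested members that share a coding sequence with another member against the percentage of read pairs not aligned uniquely (horizontal axes) in each of the 8 libraries, with filled circles for serum and open triangles for serum-free. The WT4 serum-free library, at 5.73%, is the lowest for the 5 genes that did not pass, whereas *H4C11* is highest in the WT4 serum library.

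Another 10 members had too few counts to be tested. *H2AC7*, *H2AC15*, *H2AC17*, *H3C4*, *H3C11*, *H4C7* and *H4C13* were at 0 in every library, which allows up to 3 counts, or 0.0409 to 0.101 CPM of a library's unscaled total, for counting error only. *H2AC1* and *H2BC1*, a head-to-head pair known from testis, had 1 count each in all libraries together. *H2BC6* had 8, 9, 4 and 4 counts with serum and 1, 4, 3 and 2 without. In the lifted annotation other genes overlap 98.7% of the coding sequence of *H2AC7*, 100% of that of *H3C4* and 88.7% of that of *H2AC17*, and none overlaps *H2AC15*, *H3C11*, *H4C7* or *H4C13*. A pair that falls on more than 1 gene is usually left out of HTSeq counts as ambiguous, and such pairs made up 8.23% to 11.5% of each library, so a level of 0 does not show that the overlapped genes were silent.

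The members lie at 6 places in the genome, counted as separate where starts are over 500000 bases apart. At the largest, chr6:25726063-26285534, 19 of 21 tested members fell and the median log2 fold change was -0.72. At chr6:27132316-27147562 all 5 tested members fell, with a median of -0.78, and at chr6:27807479-27893891 11 of 12 fell, with a median of -0.74. At chr1:149782689-149887965 5 of 9 fell, with a median of -0.56, and the 4 that did not pass were *H3C14*, *H3C15*, *H4C14* and *H4C15*. Both *H2AC25* and *H2BC26* at chr1:228457364-228458558 fell. Among tested members with a promoter window, all 18 with an octamer and all 11 with an E2F motif fell, against 20 of 28 and 27 of 35 of those without. With a CCAAT box 34 of 38 fell, against 4 of 8 without. All of those without it were H4 genes, so this count follows the classes too. The ones that did not pass were *H4C16* and *H4C12*, *H4C14* and *H4C15*, whose values are uncertain. With a TATA box 25 of 31 fell, with a median of -0.66, against 13 of 15 without, with a median of -0.72. The octamer and E2F counts follow the classes, since octamers and E2F motifs were nearly all in H2A and H2B genes. A site between head-to-head genes can also count for both of them.

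Genes that act on histone mRNA had smaller median changes than the members. In the list of 16 genes for histone mRNA transcription and 3′ end processing, 4 fell and 1 rose, with a median log2 fold change of -0.19, and with the block 10 fell and 4 rose. Of all tested genes, 14.0% were called lower and 11.1% higher, or 22.4% and 23.2% with the block, so the share of this list that rose was near or under that of all genes. *SLBP*, the stem-loop binding protein, was at 127, 114, 119 and 113 CPM with serum and at 91.8, 87.3, 84.8 and 70.4 CPM without, with no overlap. It fell by 0.50 ± 0.09 on the log2 scale (SE, edgeR adjusted p = 0.00412). *NPAT*, the coactivator of histone genes, was at 50.2, 48.4, 50.2 and 43.9 CPM with serum and 44.1, 40.9, 41.9 and 45.4 CPM without. Its log2 fold change of -0.16 ± 0.07 (SE) did not pass (edgeR adjusted p = 0.120, and 0.0603 with the block). *CSTF2*, a 3′ end processing factor, fell by 0.35 and *SNRPD3*, a Sm protein, by 0.38 on the log2 scale. *MIF4GD*, which links SLBP to translation, rose by 0.61 ± 0.15 on the log2 scale (SE, edgeR adjusted p = 0.0158), a call that was lost without both libraries of WT2 or of WT3.

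In the list of 10 genes for histone mRNA decay, 3 fell and none rose, with a median of -0.22, and with the block 6 fell and 2 rose, the latter under the 23.2% of all genes. These were *ERI1*, the exonuclease that trims the stem-loop, at -0.53, *DCP2*, the decapping enzyme, at -0.40, and *LSM4* at -0.36. None of these 3 calls held without both libraries of WT1 or of WT2, and 1 decay gene was called lower without those of WT3. Of 17 histone chaperone genes, 10 fell and none rose, with a median of -0.29, and with the block 14 fell and none rose, against 14.0% and 22.4% of all genes lower in these fits. Without both libraries of WT1 or of WT3 3 chaperone genes were called lower, and 4 without those of WT2. *HAT1*, which acetylates new H4, fell by 0.57, *HJURP*, the chaperone of the centromeric H3, by 0.51, and *CHAF1B* of the CAF-1 complex by 0.41 on the log2 scale.

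Most genes for S-phase entry and DNA synthesis were also lower without serum. Of 20 tested, 18 fell and none rose, with a median log2 fold change of -0.56, beside 14.0% lower and 11.1% higher over all tested genes. *CDK2*, the kinase of S-phase entry, was at 101, 94.6, 90.0 and 86.8 CPM with serum and at 47.0, 43.3, 45.0 and 40.5 CPM without, a log2 fold change of -1.08 ± 0.07 (SE, edgeR adjusted p = 2.88e-04). *RRM2*, a subunit of ribonucleotide reductase, fell by 0.96 and *CCNA2*, cyclin A2, by 0.62 on the log2 scale. The fall of *RRM2* was 0.91, 0.87, 1.01 and 1.03 in WT1 to WT4 and that of *CDK2* 1.0 to 1.12, so WT4 lay close to the other lines in both. In *CCNA2* the fall was 0.59, 0.47, 0.60 and 0.83, largest in WT4. Over the whole list WT4 had the largest fall for 13 of 20 genes, and the line medians were -0.54, -0.44, -0.60 and -0.63, against -0.62, -0.58, -0.50 and -1.06 for the histone members.

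Of 12 tested genes in the list of replication-independent histone variants, 6 fell and none rose, with a median of -0.15. Over all tested genes 14.0% were lower and 11.1% higher. Whether each gene of this list is independent of replication was not tested. With the block 6 fell and 2 rose, the latter a smaller share than the 23.2% of all genes. WT4 had the lowest log2 change for 11 of 12 of these genes, with line medians of -0.16, -0.05, -0.15 and -0.32 in WT1 to WT4. It did so for 8 of 17 chaperone, 7 of 16 processing and 3 of 10 decay genes. The lower count was 2 without both libraries of WT1 or of WT3 and 3 without those of WT2, and 4 variants were called higher without those of WT4. *H2BC12L*, whose symbol is that of the member *H2BC12* with a letter added and so lies outside the rule, fell by 0.90 on the log2 scale. *H2AZ1*, a variant found at promoters, fell by 0.60 and *H2AZ2* by 0.25. *H3-3A* and *H3-3B*, which encode the H3 variant used outside S phase, were at 0.01 ± 0.06 and -0.12 ± 0.08 (SE), and neither passed (edgeR adjusted p = 0.902 and 0.267). *H3-3B* was at 509 ± 30.3 CPM with serum and 468 ± 38.9 without (SD, n = 4).

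**Figure D5:**
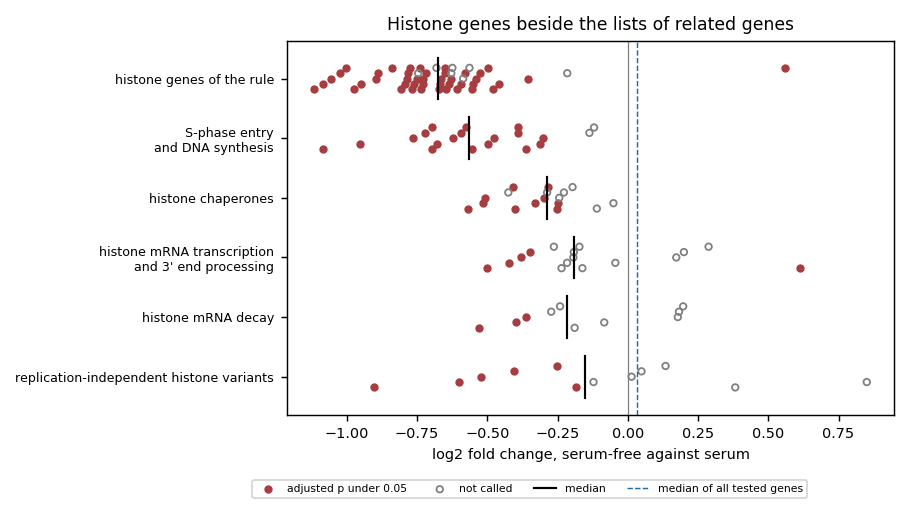
Log2 fold change (serum-free against serum, horizontal axis) of the tested histone members and of the genes of 5 related lists, filled where edgeR's adjusted p was under 0.05, with a bar at each list's median and a dashed line at the median of all tested genes, 0.03. The medians run from -0.68 for the members and -0.56 for S-phase genes to -0.15 for the replication-independent variants.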

How the data were processed

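The authors deposited raw counts of read pairs per gene for 8 libraries as whole numbers, not normalized. The submitters' processing notes name cutadapt, TopHat2 2.0.11 and HTSeq on GRCh38, and the annotation release and strand setting are not given in the sources used here, so genes that overlap, in sense or antisense, are uncertain. Another build and FPKM values named in the paper's methods were not used. Symbols were matched for 55604 of 58051 identifiers. Positions and promoters came from RefSeq GRCh38.p14 by symbol, and lengths, coding sequences, overlaps and stem-loops from a GENCODE annotation lifted to GRCh37.

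Low genes were removed with filterByExpr and libraries scaled by TMM. Serum-free was tested against serum over all 8 libraries, without blocking, by the robust quasi-likelihood functions glmQLFit and glmQLFTest of edgeR 4.0.16 (R 4.3.3). Log2 fold changes per line used a prior count of 2. The test was checked on simulated counts with planted changes.

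Same-numbered libraries come from the same line, and their deviations from the group means correlated at 0.40, 0.59, 0.46 and 0.60 in WT1 to WT4, against at most 0.13 between lines. The block was therefore the paired alternative. Others were DESeq2 1.42.0, limma 3.58.1 voom, RLE and upper-quartile scaling, other count filters, protein-coding genes only, and each library or line left out. Coding length was added after the data were seen, since the planned protein comparison was not analysed here.

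The members and lists were chosen with earlier results of these data known. *H2BU1* and *H4-16* of the variant list carry the symbols *H2BC26* and *H4C16* here and counted as members. Named by rule were, per class, the most abundant member, the 3 largest falls, any rise, members that did not pass or were not tested, members with polyadenylated forms and head-to-head pairs. For each list, *SLBP*, *NPAT*, the 3 smallest p and any gene against its majority were named. *H2AC8*, *H4C5*, *H4C11*, *H2BC18*, *H3-3A* and *H3-3B*, and members named for a lost call, were chosen after their values were seen.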

Additional observations from a re-analysis of the deposited data

Results flagged for a closer look

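In 112 groups of 4 libraries (50 members and 6 class sums, in both conditions), 10 held a library far from the other 3 by Dixon's test at the 95% level, where chance gives about 1 in 20. In 9 of them it was WT4 with serum, the library with the highest histone share. Its CPM was 327 for *H2AC8* (others 243 to 251), 60.8 for *H2AC16* (others 37.8 to 41.5), 247 for *H2AC25* (others 156 to 160) and 109 for *H2BC10* (others 82.0 to 83.4). It was 211 for *H2BC17* (others 149 to 159), 360 for *H3C13* (others 213 to 229), 109 for *H4C9* (others 69.5 to 75.9) and 287 for *H4C11* (others 212 to 218). The H2A sum stood at 2409 CPM there, against 1684 to 1808 in the other serum libraries. These groups share libraries, so they are not independent. The remaining library was WT2 without serum for *H2AC11*, at 223 CPM against 208 to 210.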

How the results depend on the processing

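No direction of a tested member or class median reversed under the 20 alternatives, nor that of a class sum under the 7 run for it, and 36 of the 43 called members kept their call under all 20. *H2AC20*, *H2AC21*, *H2AC25*, *H3C6*, *H3C13*, *H4C1* and *H4C5* lost it under at least 1, mostly with a line or library left out. DESeq2 called 48 members lower, upper-quartile scaling 39, and the replicate block 44. With a library or a line left out, members called lower ran from 36 to 47 and higher from 0 to 1, with 0 without the lines WT1 or WT2. The fitted class medians moved by less than the spread between lines, as did the summed levels under every scaling and without the most abundant member. The replicate block changed the count of lower calls by over 1.5 times for processing genes (10 against 4) and decay genes (6 against 3), and it raised higher calls from 1 to 4, 0 to 2 and 0 to 2 for processing, decay and variant genes. DESeq2 gave 6 lower decay genes and 1 higher variant, and limma voom 1 higher variant. Upper-quartile scaling gave 3 higher processing genes, 1 higher decay gene and 3 lower variants, and protein-coding genes alone 2 higher processing genes. With a library or line left out, lower calls ran from 3 to 8 for processing genes, 0 to 5 for decay, 2 to 6 for variants, 3 to 13 for chaperones and 15 to 18 for S-phase genes, and higher calls from 0 to 2 for processing genes and 0 to 4 for variants. Fewer libraries were fitted in these, and otherwise the cause was not tested. All genes called lower and higher numbered 969 and 620 without WT1 but 3097 and 2534 without WT4. The 10 members that were not tested had 0 to 9 counts in each library, too few for a test.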
